A study of Arabidopsis thaliana with 2 samples.

Results

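The shoot meristem and the boundaries between cotyledons were followed through 10 regulatory genes of Arabidopsis thaliana: the NAC genes CUC1 (AT3G15170), CUC2 (AT5G53950) and CUC3 (AT1G76420), the class I KNOX homeobox genes STM (AT1G62360), KNAT1 (AT4G08150), KNAT2 (AT1G70510) and KNAT6 (AT1G23380), the GRAS gene LAS (AT1G55580), and the AP2-type genes DRN (AT1G12980) and DRNL (AT1G24590). They and the lists of further genes below were picked by locus identifier from the known biology, but with earlier results of these data known. A gene missing from a file counted as 0. Of the 10, 9 were listed in at least 1 library, out of 20029 genes listed in all. Both libraries came from wild-type plants of the accession Ws-0, 38 to 46 days old, at the globular stage of the embryo, without treatment. One library was made from the embryo proper, the sphere that becomes the seedling, and the other from the suspensor, the stalk that anchors it. By laser, each region was taken from sections of paraffin-embedded seeds whose embryo measured 24 to 32 μm across; the sources used here do not say how many seeds were used. The regions are called EP (embryo proper) and SUS (suspensor) from here on.

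The cotyledons and the shoot meristem arise from the top of the embryo proper. CUC1, CUC2 and CUC3 encode NAC transcription factors that keep the cotyledons apart and act upstream of STM, the KNOX gene that maintains the meristem as undifferentiated tissue. KNAT1, KNAT2 and KNAT6 are its relatives and overlap with it in function, LAS marks organ boundaries later in life, and DRN and DRNL act redundantly in cotyledon formation. In wild-type embryos STM is known to start in a few apical cells late in the globular stage. The suspensor forms none of these structures in normal development.

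Levels are RPKM, read numbers scaled to gene length and library size. The read totals recovered from the deposited values were 12715913 for EP and 7189150 for SUS, so 1 read weighs 1.77 times as much in SUS. With 1 library per region there was no replicate check and no test was run. Each fold has a 95% exact binomial (Clopper-Pearson) interval from the reads, which covers counting error only, since PCR copies were not told apart from separate molecules. In bulk tissue, fewer cells that express a gene and less RNA per cell cannot be told apart. The labels were checked against markers of each tissue. Of 6 EP markers, 5 were at least 4-fold higher in EP, and all 5 suspensor markers were at least 4-fold higher in SUS. Most markers of the adjoining seed tissues were also higher in SUS: 5 of the 6 endosperm markers and 4 of the 7 seed coat markers that reached 1 RPKM differed by at least 4-fold on the log2(RPKM + 1) scale. The other 2 endosperm markers lay the other way, YUC10 at 0.546 RPKM in EP and 0.121 in SUS, and PHE1 at 0.936 and 0.828, with intervals of the fold that include 1. The 8 endosperm markers summed to 170.0 RPKM in SUS and 18.6 in EP, and the 8 seed coat markers to 79.5 and 3.29. All 8 endosperm markers were listed in both libraries. Of the seed coat markers, TT16 was listed in neither library, and TT2, TT8, BAN and TT10 were not listed in EP.

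The boundary and AP2-type genes were higher in EP, whereas KNAT6 was at close levels in both. KNAT2 was low in both, and its ratio of EP to SUS, 0.763 (0.412 to 1.44), was not resolved. Of the 8 genes that reached 1 RPKM in either library, CUC1, CUC3, DRN and DRNL were at least 4-fold higher in EP on the scale of log2(RPKM + 1), and none was at least 4-fold higher in SUS. Among all 16975 genes with the same level, 8.32% were at least 4-fold higher in EP and 12.3% in SUS. At 2-fold, CUC2 and KNAT1 joined them, giving 6 of 8 higher in EP and 0 in SUS at that threshold, beside 23.1% and 29.3% of all genes. The median log2 ratio of EP to SUS was 2.29 over the 8 genes and -0.13 over all genes. Because the pseudocount of 1 RPKM understates the difference of low genes, folds with an interval are given without it. The remaining 2 genes, STM and LAS, were under 1 RPKM in both libraries.

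**Figure D1:**
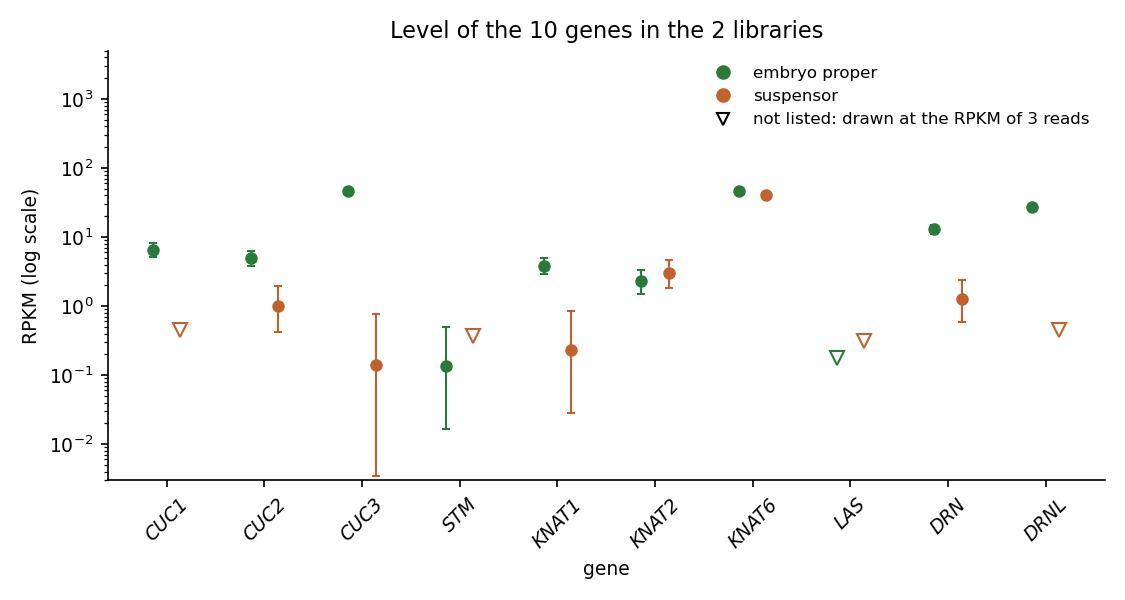
Level of each of the 10 genes in RPKM on a log scale, with 95% Poisson intervals from the reads as bars. Green marks EP and orange SUS; an open triangle stands at the RPKM of 3 reads where a gene was not listed. CUC3, DRNL, DRN, CUC1, CUC2 and KNAT1 lie higher in EP, and KNAT6 stands near 40 to 46 RPKM in both.

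Within EP the levels of the 10 genes ran from 46.8 RPKM for CUC3 down to an unlisted LAS. KNAT6 came next at 45.8 RPKM, and its ratio to CUC3 was within counting error, at 1.02 (0.909 to 1.15). DRNL at 27.2, DRN at 13.0 and CUC1 at 6.58 RPKM followed, each below the gene before it by more than counting error. CUC1 was not separated from CUC2 at 4.95 RPKM, with a ratio of 1.33 (0.951 to 1.86), nor CUC2 from KNAT1 at 3.81 RPKM, with a ratio of 1.30 (0.905 to 1.87). KNAT2 at 2.28 RPKM lay below KNAT1 by a ratio of 1.67 (1.04 to 2.75), and STM at 0.137 RPKM closed the order. In SUS the order was another one: KNAT6 at 40.6 RPKM stood far above KNAT2 at 2.98, DRN at 1.27, CUC2 at 0.987, KNAT1 at 0.232 and CUC3 at 0.138, and the other 4 genes were not listed. From DRN downward, no neighbours in that order differed by more than counting error. KNAT6 alone made up 87.9% of the summed level of the 10 genes in SUS, against 30.4% in EP, where CUC3 made up 31.1%. CUC3 and KNAT6 exceeded 82.8% and 82.6% of the genes listed in EP.

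Among the boundary NAC genes, CUC3 (chr1:28671806-28674045, minus strand of TAIR10.1) was by far the most abundant. It stood at 46.8 RPKM in EP, on 598 reads, and at 0.138 RPKM in SUS, on 1 read. The libraries thus lay 338-fold apart, with a wide interval of 60.4 to 13376 that the single SUS read sets. CUC1 (chr3:5109782-5111608, plus strand) stood at 6.58 RPKM in EP, on 78 reads, and was not listed in SUS. At the depth of SUS, the EP level of CUC1 would correspond to 44.1 reads. With a floor of 3 reads per library for unlisted genes, the EP level of CUC1 was 14.7 times the SUS floor. Such a ratio to the floor leaves out counting error and is not the lower bound of an interval. CUC2 (chr5:21901704-21903854, minus strand) stood at 4.95 RPKM on 71 reads in EP and 0.987 RPKM on 8 reads in SUS, 5.02-fold higher (2.41 to 12.1). CUC2 was therefore the one boundary NAC gene with more than 1 read in SUS. In EP, CUC3 was 7.12 times as abundant per length as CUC1 (5.61 to 9.13) and 9.45 times as abundant as CUC2 (7.38 to 12.3), and it made up 80.2% of the summed RPKM of the 3 genes.

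CUC1 and CUC2 are known targets of the microRNA miR164, which guides cleavage of their transcripts, and CUC3 is not. The sequences below show this difference within the gene set. The mature miR164a was read from RefSeq (assembly TAIR10.1) at chr2:19520770-19520790 on the plus strand, with its seed, bases 2 to 8, in capitals; miR164b-5p has the same letters, and miR164c-5p shares the seed.
miR164a: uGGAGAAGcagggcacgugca
miR164c-5p: uGGAGAAGcagggcacgugcg
The coding sequence of each gene was searched for the 21 bases closest to the exact complement of miR164a, without gaps. Capitals mark bases that do not match that complement, and the sites are on chr3:5111137-5111157 (plus strand, CUC1), chr5:21902301-21902321 (minus, CUC2), chr1:28672053-28672073 (minus, CUC3) and chr1:20947142-20947162 (minus, NAC1), each within 1 coding exon of the same assembly.
CUC1: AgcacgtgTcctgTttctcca
CUC2: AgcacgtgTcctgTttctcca
CUC3: CAcaTgCTAcTAgAttctcca
NAC1: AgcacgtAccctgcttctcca
CUC1 and CUC2 carry identical letters with 3 mismatches. The closest stretch of CUC3 has 9, which is also the median of the closest stretch over 27555 coding sequences. Only 6 of those coding sequences came within 3 mismatches: CUC1, CUC2, NAC1 (AT1G56010), NAC080 (AT5G07680), NAC100 (AT5G61430) and AT3G12977, all annotated as NAC genes. Of these 6, CUC1 and CUC2 were the only ones above 1 RPKM in either library. NAC1, which acts in lateral root formation, was at 0.161 RPKM in EP on 2 reads and not listed in SUS. NAC080 was not listed in EP and rested on 1 read in SUS, and NAC100 and AT3G12977 were listed in neither. The precursor genes MIR164A, MIR164B and MIR164C were listed in neither library, and the mature microRNA was not measured. That absence cannot be read as a low level, because 19868 of the 19875 listed identifiers that matched the annotation had a coding sequence.

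The AP2-type pair DRN and DRNL, transcription factors of the apical cells and cotyledon primordia, was also higher in EP. DRNL (chr1:8714365-8715378, minus strand) stood at 27.2 RPKM in EP, on 319 reads, and was not listed in SUS. Its EP level would give 180 reads at the depth of SUS, and was 60.1 times the SUS floor of 3 reads. DRN (chr1:4429718-4430965, plus strand) stood at 13.0 RPKM on 163 reads in EP and at 1.27 RPKM on 9 reads in SUS, 10.2-fold higher (5.26 to 22.8). Within EP, DRNL was 2.10 times as abundant per length as DRN (1.73 to 2.55). In SUS this order was turned, since DRN was the one of the pair with reads there. The longest run of bases that the coding sequences of DRN and DRNL share is 23.

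**Figure D2:**
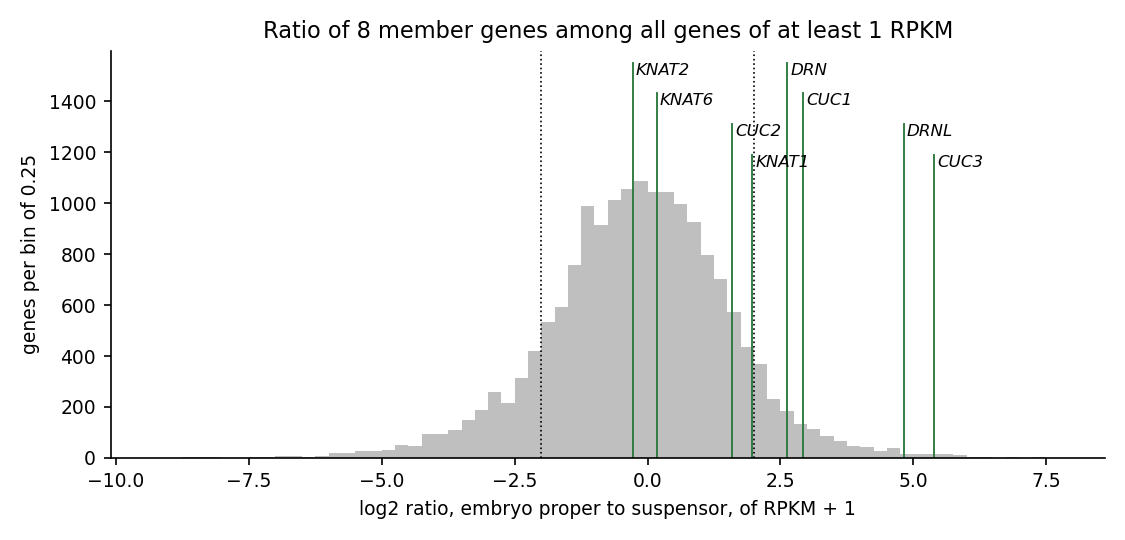
Histogram of the log2 ratio of EP to SUS, on RPKM + 1, over the 16975 genes that reached 1 RPKM in either library, in bins of 0.25. Green lines mark the 8 member genes at that level and dotted lines the 4-fold threshold; CUC3 and DRNL lie far to the right, and KNAT6 and KNAT2 near the middle.

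The class I KNOX genes were divided. KNAT6 (chr1:8297241-8302651, minus strand), which acts with STM in the meristem and at the boundary, stood at 45.8 RPKM in EP on 577 reads and at 40.6 RPKM in SUS on 289 reads. The ratio of 1.13 had an interval of 0.978 to 1.30, so no difference beyond counting error was seen with RPKM as deposited. The log2(RPKM + 1) ratio of KNAT6 was 0.171 as deposited and 0.232 to 0.286 under 3 other scalings of the libraries. The interval was not recomputed for those scalings and would move up with them. Its lower bound of 0.978 lies close to 1, so whether the interval includes 1 depends on the scaling. KNAT2 (chr1:26576486-26582879, plus strand), its closest paralogue, was low in both, at 2.28 RPKM on 27 reads in EP and 2.98 RPKM on 20 reads in SUS, with a ratio of EP to SUS of 0.763 (0.412 to 1.44). KNAT1 (chr4:5147699-5151159, minus strand), also called BREVIPEDICELLUS and known for its role in stem architecture, stood at 3.81 RPKM on 58 reads in EP and at 0.232 RPKM on 2 reads in SUS. It was thus 16.4-fold higher in EP, with an interval of 4.34 to 139 that rests on those 2 SUS reads. On the log2(RPKM + 1) scale the ratio of KNAT1 was 1.97, just under the 4-fold threshold, and CUC2 lay below it at 1.58. Next above the threshold came DRN at 2.62.

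STM (chr1:23058582-23062063, minus strand) was barely detected. It stood at 0.137 RPKM in EP, which is 2 reads, and was not listed in SUS, where 3 reads would correspond to 0.363 RPKM. Both values are at or under the floor of 3 reads, so no fold between the libraries is given. Within EP, KNAT6 was 335 times as abundant per length as STM, with a wide interval of 92.3 to 2771 that the 2 STM reads set. LAS (chr1:20763844-20765823, plus strand), a GRAS regulator of axillary meristems, was listed in neither library, where 3 reads would correspond to 0.176 RPKM in EP and 0.312 RPKM in SUS.

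KNAT2 and KNAT6 share the longest identical run among all pairs of the 10 genes, 41 bases near the 3′ end of their coding sequences. It is shown because reads inside it could belong to either gene.
KNAT2 and KNAT6: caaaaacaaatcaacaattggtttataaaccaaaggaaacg
The run lies at chr1:26582032-26582072 on the plus strand in KNAT2 and at chr1:8297575-8297615 on the minus strand in KNAT6 (TAIR10.1). Of the 921 windows of 25 bases in the KNAT2 coding sequence, 28 (3.04%) also occur in KNAT6. The sources used here do not say how reads with several matches were counted, so such reads could move the low KNAT2 values. CUC2 shares runs of at least 25 bases with 2 genes, the longest being 29 bases with AT3G04060, and KNAT1 shares 27 bases with AT2G44870. Both are low genes, so such reads could move their values too. AT3G04060 was itself lower than CUC2, at 1.47 RPKM in EP and 0.137 in SUS, whereas KNAT6 was far above KNAT2. CUC1, CUC3, STM, LAS, DRN and DRNL share no run of 25 bases with any other coding sequence, and no annotated gene overlaps any of the 10.

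The class II KNOX genes, relatives that in general act against class I genes and favour differentiation, also differed from each other. KNAT3 (AT5G25220) stood at 26.5 RPKM in EP and 8.37 in SUS, 3.16-fold higher in EP (2.48 to 4.07), and KNAT4 (AT5G11060) at 5.46 and 1.18 RPKM. KNAT5 (AT4G32040) lay the other way, at 35.6 RPKM in SUS and 10.6 in EP, 3.37-fold higher in SUS (2.76 to 4.12). KNAT7 (AT1G62990), a regulator of secondary walls, had 7 reads in SUS and was not listed in EP. The 4 class I and 4 class II genes summed to 94.6 RPKM in EP and 90.1 in SUS. KNAT6 made up 48.5% and 45.1% of those sums, KNAT3 28.0% and 9.29%, and KNAT5 11.2% and 39.5%. So the sums were close and KNAT6 was the largest part of both, while the shares of KNAT3 and KNAT5 differed between the libraries. The endosperm and seed coat markers, at 170.0 and 79.5 RPKM in SUS, were higher there as well, and their part in the KNAT6, KNAT2 and KNAT5 levels was not tested.

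**Figure D3:**
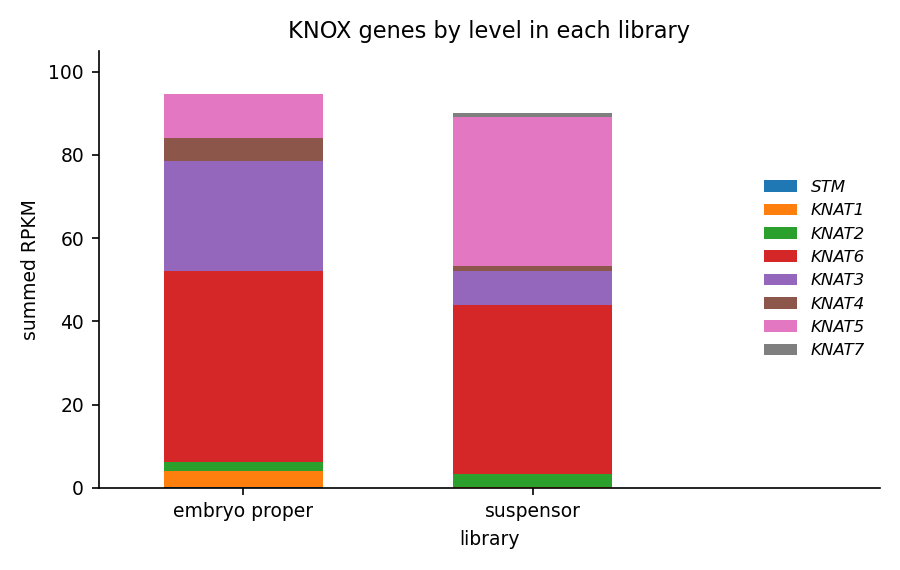
Summed RPKM of the class I genes STM, KNAT1, KNAT2 and KNAT6 and the class II genes KNAT3, KNAT4, KNAT5 and KNAT7, stacked by gene, in EP and SUS. KNAT6 is the largest block of both bars, 45.8 and 40.6 RPKM; KNAT3 is larger in EP and KNAT5 in SUS.

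The other genes of the shoot meristem pathway were partly present. The list held 18 genes: the BELL homeobox genes whose products bind KNOX proteins, the stem cell genes WUS, CLV1, CLV2, CLV3 and CRN, the remaining KNOX genes, the GRAS genes HAM1 to HAM4, and IPT7 of cytokinin synthesis. Of these, 11 reached 1 RPKM in a library; on the log2(RPKM + 1) scale 3 were at least 4-fold higher in EP and 0 in SUS, beside 8.32% and 12.3% of all genes, and the median log2 ratio was 1.28. Without the pseudocount, PNY was 11.8-fold higher in SUS (3.50 to 62.0), on 3 reads in EP. The SUS level of KNAT7 was 4.13 times the EP floor of 3 reads. HAM1 (AT2G45160), which keeps the meristem in an undifferentiated state, stood at 30.8 RPKM in EP and 0.579 in SUS, 53.2-fold higher (26.9 to 124). Its paralogue HAM2 (AT3G60630) stood at 6.85 and 0.594 RPKM, 11.5-fold higher (5.71 to 27.1). CRN (AT5G13290), a kinase-like partner of CLV2 in CLAVATA signalling, stood at 25.6 and 1.96 RPKM, 13.0-fold higher (8.04 to 22.6).

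Apart from CRN, the stem cell genes were under 5 RPKM in both libraries. WUS (AT2G17950), the homeobox gene of the organizing centre, stood at 1.43 RPKM in EP on 16 reads and was not listed in SUS. Its EP level was 3.02 times the SUS floor of 3 reads. CLV3 (AT2G27250), the peptide signal that restrains WUS, was listed in neither library, where 3 reads would correspond to 0.811 RPKM in EP and 1.43 in SUS. The receptor genes CLV1 (AT1G75820) and CLV2 (AT1G65380) lay in opposite directions: CLV1 stood at 0.935 RPKM in EP and 1.89 in SUS, 2.02-fold higher there (1.25 to 3.28), and CLV2 at 4.11 and 2.38 RPKM, 1.73-fold higher in EP (1.18 to 2.58). Of the BELL partners, PNY (AT5G02030) was at 1.61 RPKM in SUS and 0.137 in EP, PNF (AT2G27990) was under 1 RPKM in both, and ATH1 (AT4G32980) was listed in neither. STM protein is known to need such partners to enter the nucleus. IPT7 (AT3G23630), an STM target, was listed in neither library.

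The wider boundary list was nearly silent. Of 22 genes, among them further miR164 targets, the MYB genes of the RAX and LOF groups, BOP1, BOP2, LOB, JLO, LSH3, LSH4 and the 3 MIR164 genes, 15 were listed in neither library and 1 reached 1 RPKM. That gene was RAX2 (AT2G36890), a MYB gene of axillary meristem formation, at 147 RPKM in SUS and 12.0 in EP, with a log2 ratio of -3.51. Beside it, 12.3% of all genes were at least 4-fold higher in SUS, and markers of endosperm and seed coat, at 170.0 and 79.5 RPKM, were higher there too; their part in the RAX2 level was not tested. The other 6 listed genes, NAC1, ORE1, NAC080, RAX1, BOP2 and LSH4, rested on 1 or 2 reads. The 3 MIR164 genes are among the 15 unlisted ones and have no coding sequence, so their absence cannot be read as a low level. Over the whole annotation, 19868 of 27555 coding sequences were listed in at least 1 library. Among the CUC genes and the genes of this list, CUC3, CUC1, CUC2 and RAX2 were thus above 1 RPKM in EP.

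**Figure D4:**
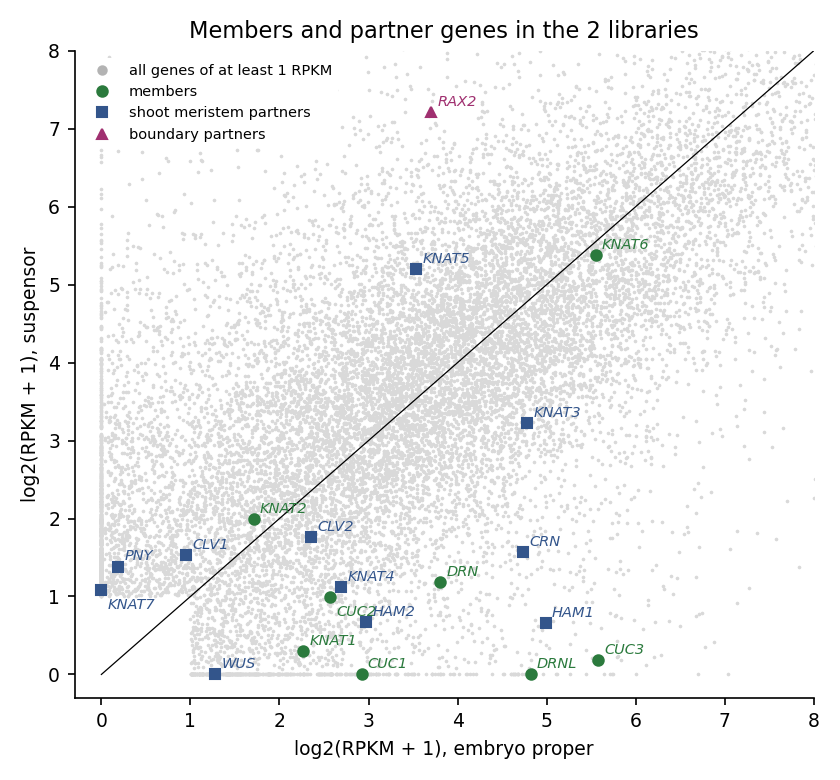
Each gene by its log2(RPKM + 1) in EP (horizontal) and SUS (vertical), with the line of equal level; values above 8 lie outside the plot. Grey points are all genes of at least 1 RPKM, green circles members, blue squares shoot meristem partners and the purple triangle the one boundary partner of at least 1 RPKM, RAX2; DRNL, CUC1 and WUS lie at 0 for SUS, CUC3 and HAM1 below 1, and KNAT6 near the line.

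Against their own families, picked by words in the annotation and therefore not complete, the members took different places. Among 39 NAC genes of at least 1 RPKM, CUC3 had the highest ratio of EP to SUS, CUC1 the fourth and CUC2 the seventh. Between CUC3 and CUC1 came NAC084 (AT5G14000), at 173 and 7.62 RPKM, and NAC038 (AT2G24430), at 12.1 RPKM and not listed in SUS. At the other end ATAF1 (AT1G01720), a stress-responsive NAC gene, stood at 95.6 RPKM in SUS and 1.18 in EP. The NAC family as a whole had 4 genes at least 4-fold higher in EP (10.3%) and 7 in SUS (17.9%), near the 8.32% and 12.3% of all genes, with a median log2 ratio of 0.16. DRNL ranked the first and DRN the fifth of 40 AP2/ERF genes, where 10 were at least 4-fold higher in EP and 2 in SUS, beside the same 8.32% and 12.3%, with a median of 0.87. ERF12 (AT1G28360), second in that order, stood at 29.9 and 0.488 RPKM.

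The TALE homeobox genes are the family of KNOX and BELL proteins. Among the 10 of at least 1 RPKM, none differed by 4-fold either way on the log2(RPKM + 1) scale. Beside that, 8.32% of all genes were at least 4-fold higher in EP and 12.3% in SUS. KNAT1 had the highest ratio of the 10. Without the pseudocount, KNAT1 and KNAT4 (4.64-fold, with a lower bound of 2.40) were past 4-fold toward EP. PNY, BEL1 and, set against the RPKM of 3 reads in EP, KNAT7 were past it toward SUS. KNAT6 ranked first by level in both libraries, of 15 TALE genes listed in EP and 13 in SUS. BEL1 (AT5G41410), a BELL gene of ovule integuments, had the lowest ratio, at 0.128 RPKM in EP and 2.96 in SUS. Among 24 GRAS genes of at least 1 RPKM, 6 were at least 4-fold higher in EP and 0 in SUS, beside 8.32% and 12.3% of all genes, led by SHR (AT4G37650) and HAM1, while LAS itself was not listed.

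**Figure D5:**
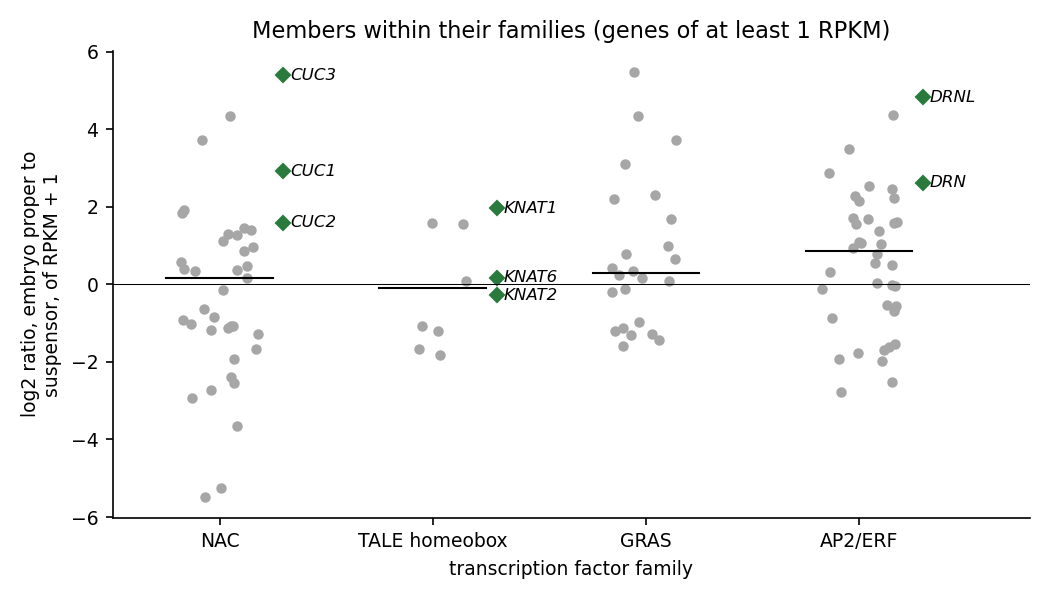
Log2 ratio of EP to SUS, on RPKM + 1, of the genes of at least 1 RPKM in the NAC, TALE homeobox, GRAS and AP2/ERF families. Grey points are other family genes with random horizontal offset, green diamonds the members and black lines the family medians; CUC3 and DRNL top their families, while KNAT6 and KNAT2 lie near 0.

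For the 4 members of at least 10 RPKM, the gene nearest in log2(RPKM + 1) over the 2 libraries was looked up among 19868 listed protein-coding genes, a measure of likeness that rests on 2 values. For CUC3 it was the F-box gene AT5G55440, at 44.8 and 0.127 RPKM in EP and SUS, and 19 genes lay within a distance of 0.5. For DRNL it was AT5G50915, a basic helix-loop-helix gene, at 27.8 RPKM and not listed in SUS, with 38 genes within that distance. For DRN it was AT4G39790, at 13.1 and 1.27 RPKM, with 101 genes. KNAT6 had the commonest profile of the 4, with 427 genes within the distance, the nearest being AT4G32130 at 46.0 and 40.4 RPKM.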

How the data were processed

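RNA was measured in 1 embryo proper and 1 suspensor library. Per the labels' protocols, 15 ng of total RNA was amplified and the library enriched by 15 PCR cycles. The authors deposited RPKM per gene, per the file headers, and listed only genes above 0. TAIR10, HISAT2 2.0.6 and HTSeq 0.6.1 appear, without roles, in the submitters' processing notes; of strand and of reads with several matches the sources used here say nothing. Gene models, names and sequences came from RefSeq TAIR10.1, a Columbia genome whose name differs from the files' build; 19875 of 20029 identifiers matched.

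Reads were recovered as RPKM times coding length times the total at which low values become whole; 91.8% (embryo proper) and 92.2% (suspensor) of the values between 0.2 RPKM and 15 reads came within 0.05 of a whole read, where chance gives 10%. For KNAT2 the shorter coding model gave whole reads and was used. The recovery and ratio steps were tested on simulated data. The main measure was log2 of the ratio with a pseudocount of 1 RPKM, for genes of at least 1 RPKM in at least 1 library, unlisted genes counting as 0. Named genes were all members, the list members of at least 1 RPKM or with a 4-fold difference, the family genes with extreme ratios and the gene nearest to each member of at least 10 RPKM; not each is printed, and list members under that level are named to account for the lists. Members and lists were chosen with earlier results of these data known. Python 3.11.15, SciPy 1.17.1 and pandas 2.3.3 were used.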

Additional observations from a re-analysis of the deposited data

How the results depend on the processing

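Results were recomputed with a pseudocount of 0.1 or 5 RPKM, without a filter or with one of 10 RPKM, with 3 scalings, genes listed in both files only, and thresholds of 2-fold and 8-fold. The direction of each member with at least 1 RPKM held under each setting that gave it a value. The count of 4 members past 4-fold toward the embryo proper was 2 with a pseudocount of 5 RPKM, 2 at 8-fold and 2 with genes listed in both files only, which drops CUC1 and DRNL by construction. It was 6 with a pseudocount of 0.1 RPKM, 6 at 2-fold and 3 of 4 genes under a filter of 10 RPKM. The members' median log2 ratio of 2.29 was 3.41 at a pseudocount of 0.1 RPKM, 0.98 at 5 RPKM and 3.72 under a filter of 10 RPKM, which leaves 4 genes. The count of 3 shoot meristem partners was 5 with a pseudocount of 0.1 RPKM and 6 at 2-fold. Scaling to a median ratio of 1 moved the median of all genes by 0.11 on the log2 scale and none of these counts. For CUC3, CUC1, DRNL, KNAT1 and STM the suspensor value rests on at most 2 reads, so depth limits their folds. No paired analysis was possible because each region has 1 library.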
